A study of Mus musculus with 28 samples.

Results

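Cytochrome P450 genes outside the Cyp2c group were followed in 14 mouse liver tumours and in the tissue next to each of them. The deposited table held 92 P450 symbols among 18182 genes. The 14 Cyp2c genes and 8 others (Cyp1a2, Cyp2e1, Cyp2f2, Cyp7a1, Cyp7b1, Cyp8b1, Cyp27a1 and Cyp51) were set aside, which left 70 genes. Of these, 50 reached 1 CPM (estimated counts scaled to the library total) in at least 3 of the 28 libraries: 2 of family Cyp1, 20 of Cyp2, 7 of Cyp3, 15 of Cyp4 and 6 of other families (Cyp17, Cyp20, Cyp21, Cyp26 and Cyp39). Just inside that rule lay Cyp4f39, with 3 libraries at 1 CPM or more, and Cyp3a16, with 4. The 3 libraries of Cyp4f39 were all peritumour, so the rule kept it through that side, which favours lower values in tumour. Just outside lay Cyp2d34 and Cyp27b1, with 2 each, Cyp3a57, Cyp46a1 and Cyp11a1, with 1 each, and Cyp2d11, with 0. The highest single value among the 20 genes under the rule was 7.06 CPM, of Cyp11a1. All 50 genes passed the filter on low counts and were tested.

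Cytochromes P450 are haem enzymes that insert oxygen into fats, steroids, vitamins, bile acids and drugs, with electrons passed on by P450 oxidoreductase and cytochrome b5. Hepatocytes carry most of the body's supply, and families Cyp1 to Cyp3 do much of the work of clearing foreign compounds. Transcription factors help set their levels: the aryl hydrocarbon receptor for Cyp1, CAR and PXR for Cyp2b and Cyp3a, and PPARA for Cyp4a. In mice, growth hormone makes several of these genes much higher in livers of one sex than of the other.

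All animals carried c-Myc together with Alb-cre, a Cre recombinase under the albumin promoter, which is active in hepatocytes, and peritumour tissue came from animals of that same genotype. No library came from a mouse without the transgene, and ages are not given in the labels. The groups were Tu_M (3 tumour libraries), Tu_F (11 tumour libraries), Pe_M (3 peritumour libraries) and Pe_F (11 peritumour libraries). Each tumour title shares a sample code with 1 peritumour title, taken here as the animal, so that there were 14 pairs, 3 with the letter M and 11 with F. The letters are not spelled out, but the Y-linked genes Ddx3y, Kdm5d, Eif2s3y and Uty measured 3.31 TPM or more in every M library and at most 0.14 TPM in any F library. Library totals ran from 14777567 to 17576921 estimated counts. Levels are given in TPM, transcript shares scaled for gene length and library size. Tests were run on estimated counts of 14117 genes with edgeR, with an adjusted p under 0.05 over all genes as the threshold. The animal was a block in tumour against peritumour and in the difference between tumour effects. Contrasts of M against F within a tissue had no block for the animal.

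The P450 genes were mostly lower in tumours. Of the 50, 23 passed the test as lower and 0 as higher, so that 46% of them were called lower against 5.91% of all genes tested. Higher calls took 5.59% of all genes. The median log2 fold change, tumour over peritumour, was -0.74 over the 50 genes and -0.01 over all genes, and 46 of the 50 values were below 0. Those above 0 were Cyp2s1, Cyp4f16, Cyp20a1 and Cyp39a1, and none of these passed. At an unadjusted p under 0.05, in either direction, 33 of the 50 were counted, against 28.1% of all genes. DESeq2 with the same pairs called 28 lower and 0 higher, where it called 8.78% of all genes lower and 8.13% higher, and all 23 were among its 28. In bulk tissue, fewer cells of a type and less RNA per cell cannot be told apart.

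The calls depended on the block for the animal. Without it, edgeR called 0 of the 50 in either direction, against 0.241% of all genes lower and 0.808% higher, while 21 of the 50 had an unadjusted p under 0.05, against 18.9% of all genes, and the median log2 fold change of the 50 was -0.52. All 23 values stayed below 0 in that fit. Sample codes come in 2 styles, 1 for 6 pairs (all M pairs and F pairs 1 to 3) and another for 8 pairs. Within the first style 0 of 48 tested passed, as did 0 of all 13663 genes, with 28 of the 48 and 8.78% of all genes at an unadjusted p under 0.05 and a median of -0.77 over the 48. Within the second 15 of 47 passed as lower, against 4.09% of all genes, with a median of -0.66. Without F pairs 2, 5 and 6, set apart for high blood precursor genes in an earlier look at these data, 22 of 49 tested passed as lower, against 7.86% of all genes, and 21 of these were among the 23.

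**Figure D1:**
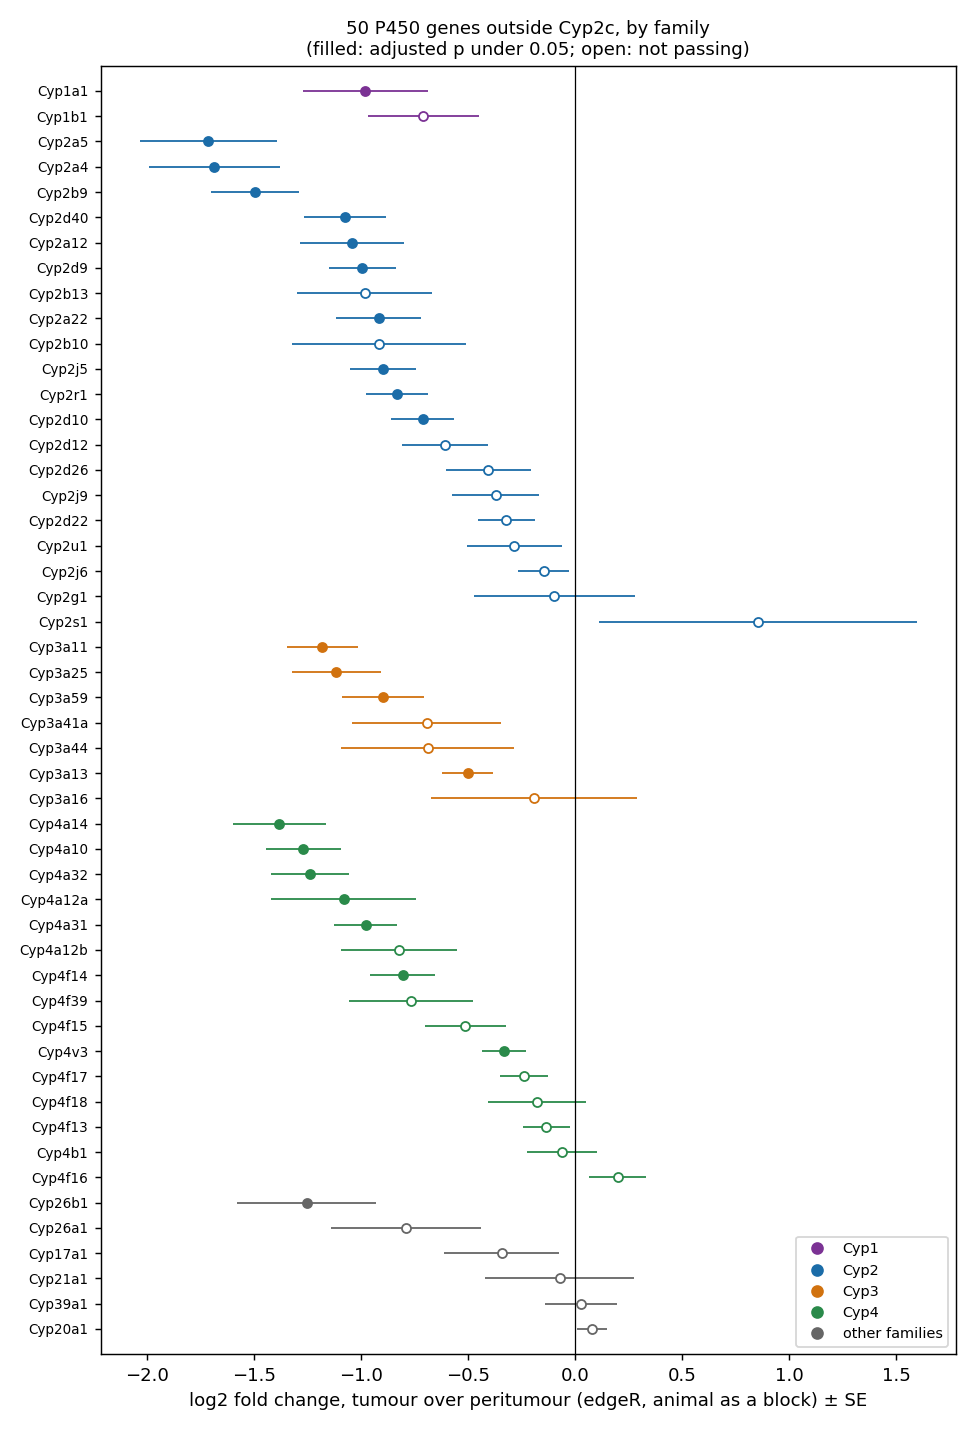
Log2 fold change, tumour over peritumour, of each of the 50 genes with its SE from the paired edgeR fit over 14 pairs, arranged by family; filled points passed at an adjusted p under 0.05. The 23 filled points all lie left of 0, and 4 open points lie right of it.

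Added together, the 50 genes made up 1940 to 6182 TPM in tumours (median 3577) and 4011 to 10410 TPM in peritumour tissue (median 6420). The sum was lower in the tumour of every pair. The ratio of tumour to peritumour ranged from 0.318 in F pair 7 to 0.855 in M pair 1, with a median of 0.509. Between 32 genes (F pair 5) and 44 genes (M pair 3) of the 50 were lower in the tumour of a pair, where the share of all genes that were lower ranged from 26.5% to 65.3%. Of the 28 genes that averaged 10 TPM or more, 18 passed as lower, against 5 of the 22 below 10 TPM. Those 2 classes had median log2 fold changes of -0.90 and -0.65. Calls among all genes at those levels were not counted.

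**Figure D2:**
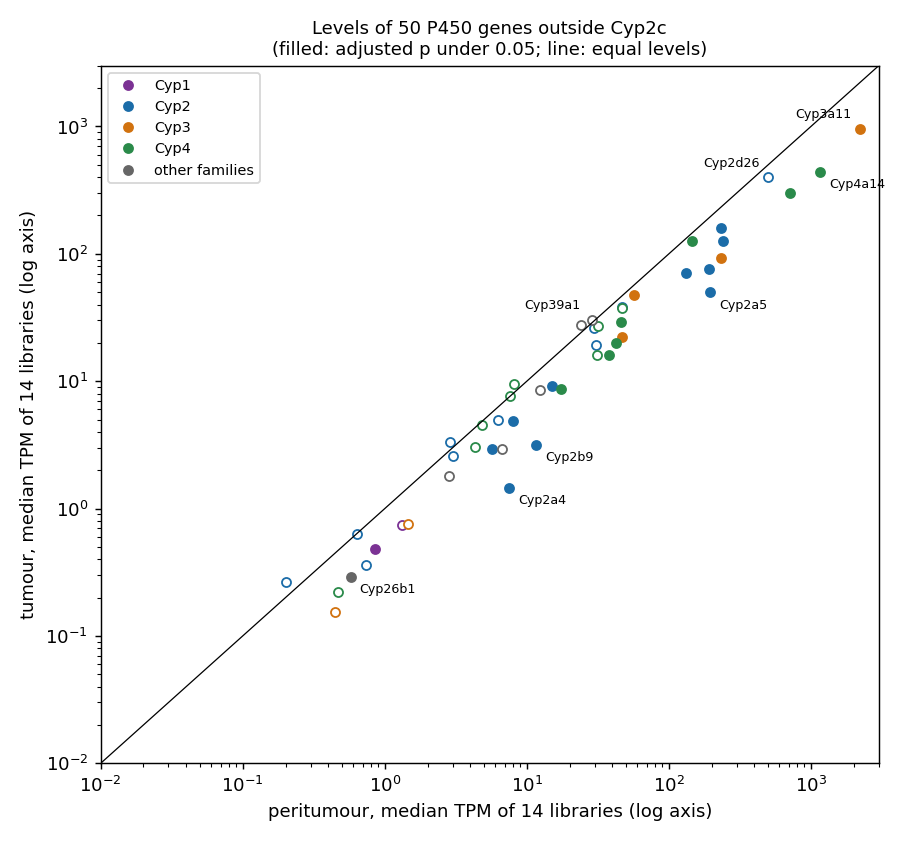
Median TPM over 14 tumour libraries (vertical) against the median over 14 peritumour libraries (horizontal), both on log axes, 1 point per gene, coloured by family and filled where the adjusted p was under 0.05; Cyp3a16, with a tumour median of 0 TPM, is not drawn. Cyp3a11, at 960.4 TPM in tumour and 2209 TPM in peritumour tissue, lies at the top right below the line of equal levels, and Cyp39a1 lies close to that line.

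Because several of the genes that moved are near-copies of each other, the start regions of 4 of them are shown here as RefSeq gives them on build GRCm38.p6, 250 bases before to 50 after the annotated start. Cyp3a11 is the most abundant of the 50, Cyp2b9 shared the smallest adjusted p with Cyp4a10, and Cyp2a4 and Cyp2a5 had the largest falls. Capitals mark letters that match the TATA box (TATAAA), C/EBP motifs (TTGCNNAA), HNF1 half-sites (GTTAAT) and nuclear receptor half-sites (AGGTCA), wherever they fall. Either strand was searched, so that TGACCT is a half-site read from the other strand. The windows are chr5:145879805-145880104 on the minus strand for Cyp3a11, chr7:26173159-26173458 on the plus strand for Cyp2b9, chr7:26306942-26307241 on the plus strand for Cyp2a4 and chr7:26835089-26835388 on the plus strand for Cyp2a5.
Cyp3a11: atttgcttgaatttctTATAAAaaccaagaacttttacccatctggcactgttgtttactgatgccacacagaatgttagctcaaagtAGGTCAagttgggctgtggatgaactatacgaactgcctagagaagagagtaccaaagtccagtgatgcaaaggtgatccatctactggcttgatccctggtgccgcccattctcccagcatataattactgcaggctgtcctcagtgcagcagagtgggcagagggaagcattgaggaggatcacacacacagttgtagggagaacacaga
Cyp2b9: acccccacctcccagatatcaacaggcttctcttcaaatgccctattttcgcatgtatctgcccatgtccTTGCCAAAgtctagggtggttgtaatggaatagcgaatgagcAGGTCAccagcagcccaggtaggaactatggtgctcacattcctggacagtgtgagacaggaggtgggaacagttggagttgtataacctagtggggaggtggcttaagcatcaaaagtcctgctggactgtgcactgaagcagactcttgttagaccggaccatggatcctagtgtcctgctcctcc
Cyp2a4: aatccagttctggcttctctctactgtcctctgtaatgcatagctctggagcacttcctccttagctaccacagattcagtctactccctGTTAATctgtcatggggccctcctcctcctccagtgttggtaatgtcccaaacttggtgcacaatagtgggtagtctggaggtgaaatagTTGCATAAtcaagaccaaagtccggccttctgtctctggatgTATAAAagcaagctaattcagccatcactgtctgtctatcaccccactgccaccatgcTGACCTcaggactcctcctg
Cyp2a5: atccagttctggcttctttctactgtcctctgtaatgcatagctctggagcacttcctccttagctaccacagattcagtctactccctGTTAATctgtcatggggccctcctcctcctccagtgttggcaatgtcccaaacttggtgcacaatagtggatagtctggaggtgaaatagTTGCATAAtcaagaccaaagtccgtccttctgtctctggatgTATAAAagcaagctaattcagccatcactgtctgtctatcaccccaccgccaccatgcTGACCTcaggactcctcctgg

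The windows of Cyp2a4 and Cyp2a5 were identical at 97.7% of aligned positions and hold the same 4 marked motifs. Their TATA boxes begin 28 and 29 bases before the start, and their C/EBP motifs 70 and 71 bases before it. The TATAAA letters marked for Cyp3a11 begin 234 bases before its start. The Cyp2b9 window was 99.3% identical to that of Cyp2b13. RefSeq windows were matched for 37 of the 50 genes, 41 windows in all, which belong to 19 of the 23 genes called lower and to 18 others. Matches at any position of a window and on either strand were counted. TATAAA was found in 41.5% of these windows and in 13.6% of all 32851 windows of the same length. TTGCNNAA was found in 31.7% and 10.8%, GTTAAT in 12.2% and 7.1%, and AGGTCA in 26.8% and 16.3%. The E-box CACGTG, a sequence that MYC can bind, was found in 4.88% and 7.15%, and the STAT motif TTCNNNGAA in 4.88% and 8.3%. AGGTCA was present in 9 of the 23 windows of genes called lower and in 2 of the 18 others. In the same order, TTGCNNAA was in 9 and 4, TATAAA in 12 and 5, GTTAAT in 4 and 1, CACGTG in 1 and 1, and TTCNNNGAA in 0 and 2. The AGGTCA matches of Cyp2a4, Cyp2a5 and Cyp2d40 begin at bases 30 to 33 after the start. The 23 windows come from 19 genes and the 18 others from 18, so some called genes were counted more than once. Cyp4f14 and Cyp3a25 each gave more than 1 of the 9 windows with TTGCNNAA, and Cyp3a25 more than 1 with AGGTCA. Several windows are also near-copies, such as those of Cyp2a4 and Cyp2a5. The windows are therefore not separate observations. Whether these letters bear on the falls was not tested. A match describes letters in a window and does not show that a factor binds there.

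The Cyp3a subfamily oxidises a wide range of drugs and steroids, and 4 of its 7 measured genes fell (Cyp3a11, Cyp3a25, Cyp3a59 and Cyp3a13). Cyp3a11 (chromosome 5, 145854607 to 145879854, gene ID 13112), the main Cyp3a enzyme of mouse liver and a PXR target, ranged over 141 to 2276 TPM in tumours (median 960.4) and 426 to 2840 TPM in peritumour tissue (median 2209). It was lower in the tumour of all 14 pairs, with a log2 fold change of -1.18 ± 0.17 (SE), adjusted p = 0.00093 (edgeR). The ranges of the tissues overlap because animals differ: F pair 5 had 141 TPM in tumour and 426 TPM in peritumour tissue, and F pair 6 had 237 TPM and 672 TPM, the lowest pairs, while M pair 1 had 2276 TPM and 2840 TPM. Within each of these pairs the tumour was the lower one.

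Cyp3a25 measured 31.0 to 222 TPM in tumours (median 93.6) and 125.5 to 297 TPM in peritumour tissue (median 231), lower in 13 pairs, with a log2 fold change of -1.11 ± 0.21 (SE), adjusted p = 0.00417 (edgeR). Cyp3a13 fell less, by 0.50 ± 0.12 (SE) on the log2 scale, with medians of 47.9 TPM in tumour and 56.5 TPM in peritumour tissue, adjusted p = 0.0148 (edgeR). The other 3, Cyp3a16, Cyp3a41a and Cyp3a44, are known as fetal or female-biased genes and had tumour medians under 1 TPM. Their log2 fold changes lay between -0.69 and -0.19 without passing.

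The Cyp4a subfamily hydroxylates the far end of fatty acids, and 5 of its 6 genes fell. Cyp4a14 (chromosome 4, 115473790 to 115499076, gene ID 13119), a PPARA target, ranged over 89.6 to 1443 TPM in tumours (median 441) and 147 to 3654 TPM in peritumour tissue (median 1160). Its log2 fold change was -1.38 ± 0.22 (SE), adjusted p = 0.00176 (edgeR), with the tumour lower in all 14 pairs. The difference was uneven: M pair 1 had 283 TPM in tumour and 313 TPM in peritumour tissue, and M pair 2 had 121 TPM and 976 TPM.

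Cyp4a10 (chromosome 4, 115518287 to 115533649, gene ID 13117), the neighbouring PPARA target, ranged over 57.9 to 1043 TPM in tumours (median 300.5) and 104 to 1949 TPM in peritumour tissue (median 707.5). It was lower in all 14 pairs, log2 fold change -1.27 ± 0.17 (SE), adjusted p = 0.00089 (edgeR). Cyp4a31 and Cyp4a32, close relatives in the same cluster, were also lower in all 14 pairs, by -0.98 ± 0.15 and -1.24 ± 0.18 (log2 fold change, SE), adjusted p = 0.00122 and 0.00117 (edgeR). These 4 make up the PPARA-inducible list, all of which fell (median log2 fold change -1.25). Ppara itself, the receptor, averaged 35.3 ± 9.63 TPM in tumours and 36.95 ± 8.04 TPM in peritumour tissue (SD, n = 14 each), adjusted p = 0.576 (edgeR).

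Cyp4a12a and Cyp4a12b, which turn arachidonic acid into a vessel-constricting product and are male-biased in mouse liver, gave a log2 fold change of -1.08 ± 0.34 (SE), adjusted p = 0.0471, and of -0.82 ± 0.27 (SE), adjusted p = 0.0582 (edgeR). The call of Cyp4a12a held in 3 of the 14 fits that leave out 1 pair. Near-copies bear on this subfamily: 48.9% of the 50-base stretches of the Cyp4a12a transcript also occur in Cyp4a12b, 34.8% of those of Cyp4a32 occur in Cyp4a10, and the authors' estimated counts divide shared reads between such genes. Cyp4a14 shares under 1% of its stretches with any other transcript.

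**Figure D3:**
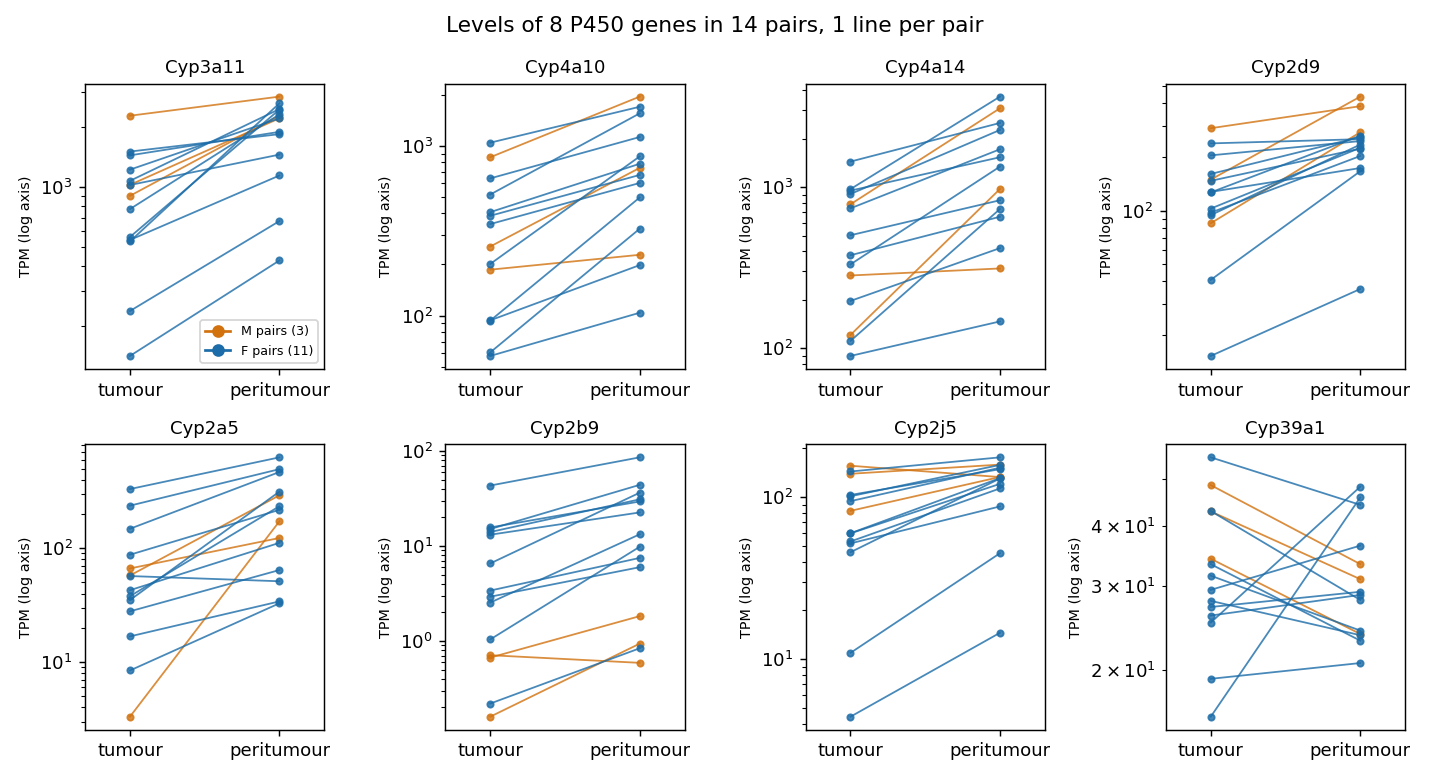
TPM on a log axis of 8 genes in tumour (left) and peritumour tissue (right), with 1 line per pair, M pairs in orange and F pairs in blue. Lines of Cyp3a11, Cyp4a10, Cyp4a14 and Cyp2d9 are lower on the tumour side in all 14 pairs, those of Cyp2a5, Cyp2b9 and Cyp2j5 in 13, and those of Cyp39a1 in 6.

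Outside Cyp4a, 2 of the 9 genes of family Cyp4 fell. Cyp4f14, a leukotriene-inactivating enzyme of liver, had medians of 29.0 TPM in tumour and 46.3 TPM in peritumour tissue and a log2 fold change of -0.81 ± 0.15 (SE), adjusted p = 0.00473 (edgeR). Cyp4v3, a fatty acid hydroxylase, changed least of the 23, with 31.5 to 171 TPM in tumours (median 125) and 35.8 to 182 TPM in peritumour tissue (median 144). Its log2 fold change was -0.33 ± 0.10 (SE), adjusted p = 0.0469 (edgeR), and its call held in 1 of the 14 fits that leave out 1 pair, the fit without F pair 2. The other 6 Cyp4f genes and Cyp4b1 did not pass, with log2 fold changes of -0.77 to 0.20. Among them Cyp4f18, known chiefly from neutrophils, ranged over 1.27 to 13.3 TPM in tumours (median 3.03) and 1.51 to 9.47 TPM in peritumour tissue (median 4.29), adjusted p = 0.642 (edgeR). Neutrophil markers summed to 32.2 to 1366 TPM in tumours and 53.5 to 2155 TPM in peritumour tissue, and 0 of 7 passed.

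All 4 Cyp2a genes fell, and Cyp2a5 and Cyp2a4 had the largest falls among the 23 genes that passed. Cyp2a5 (chromosome 7, 26835339 to 26843264, gene ID 13087), which hydroxylates coumarin and nicotine, ranged over 3.31 to 331 TPM in tumours (median 49.8) and 32.8 to 628 TPM in peritumour tissue (median 195). It was lower in 13 pairs, log2 fold change -1.71 ± 0.32 (SE), adjusted p = 0.0042 (edgeR). The exception was F pair 3, with 56.9 TPM in tumour and 51.3 TPM in peritumour tissue, and the widest gap was in M pair 2, with 3.31 TPM and 173 TPM. Cyp2a4 (chromosome 7, 26307192 to 26315088, gene ID 13086), a steroid hydroxylase, gave 0.26 to 28.2 TPM in tumours (median 1.45) and 0.47 to 60.8 TPM in peritumour tissue (median 7.55), log2 fold change -1.68 ± 0.31 (SE), adjusted p = 0.0036 (edgeR). Their transcripts share 36.1% of the stretches of Cyp2a4, so part of each count may belong to the other. Cyp2a12 and Cyp2a22 fell by 1.04 ± 0.24 and 0.92 ± 0.20 (SE) on the log2 scale, adjusted p = 0.0138 and 0.0103 (edgeR).

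In the Cyp2b subfamily 1 of 3 genes fell. Cyp2b9 (chromosome 7, 26173335 to 26210661, gene ID 13094), a female-biased gene, ranged over 0.16 to 43.3 TPM in tumours (median 3.17) and 0.59 to 85.8 TPM in peritumour tissue (median 11.6). Its log2 fold change was -1.49 ± 0.21 (SE), adjusted p = 0.00089 (edgeR), lower in 13 pairs. Cyp2b10, the classic CAR target of mouse liver, ranged over 0.18 to 56.6 TPM in tumours (median 19.2) and 2.41 to 55.7 TPM in peritumour tissue (median 30.5). It was lower in 11 pairs and did not pass, log2 fold change -0.91 ± 0.41 (SE), adjusted p = 0.151 (edgeR). Cyp2b13 was just short of the threshold, -0.98 ± 0.32 (SE), adjusted p = 0.0524 (edgeR).

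The Cyp2d subfamily, relatives of the human drug-oxidising enzyme CYP2D6, had 3 of 6 genes lower. Cyp2d9 (chromosome 15, 82452377 to 82456827, gene ID 13105), a male-biased testosterone hydroxylase, ranged over 15.2 to 290.1 TPM in tumours (median 127) and 36.2 to 437 TPM in peritumour tissue (median 240.2). It was lower in all 14 pairs, log2 fold change -0.99 ± 0.16 (SE), adjusted p = 0.00191 (edgeR). Cyp2d40 fell by 1.08 ± 0.19 (SE) and Cyp2d10 by 0.71 ± 0.15 (SE) on the log2 scale, adjusted p = 0.00331 and 0.00832 (edgeR). Cyp2d26, the most abundant of this subfamily, measured 88.1 to 744 TPM in tumours (median 398) and 297 to 696 TPM in peritumour tissue (median 498). It did not pass, log2 fold change -0.40 ± 0.20 (SE), adjusted p = 0.192 (edgeR), and was lower in 9 pairs.

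Among the remaining Cyp2 genes, Cyp2j5 and Cyp2r1 fell. Cyp2j5 (chromosome 4, 96627432 to 96664171, gene ID 13109), an epoxygenase of arachidonic acid, measured 4.42 to 156 TPM in tumours (median 71.1) and 14.6 to 176 TPM in peritumour tissue (median 132), log2 fold change -0.90 ± 0.15 (SE), adjusted p = 0.00269 (edgeR). Cyp2r1 (chromosome 7, 114550123 to 114565621, gene ID 244209), the main vitamin D hydroxylase of liver, measured 0.38 to 7.34 TPM in tumours (median 2.94) and 0.65 to 9.96 TPM in peritumour tissue (median 5.66). It was lower in all 14 pairs, log2 fold change -0.83 ± 0.14 (SE), adjusted p = 0.00271 (edgeR). Neither shares as much as 1% of its transcript with another gene. Cyp2j6, Cyp2j9, Cyp2u1 and Cyp2g1 did not pass, with log2 fold changes of -0.37 to -0.10.

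Cyp2s1, an enzyme of epithelia outside the liver, had the highest value of the 50, a log2 fold change of 0.86 ± 0.74 (SE), adjusted p = 0.472 (edgeR), and its medians were 0.63 TPM in tumours and 0.64 TPM in peritumour tissue. Only 4 tumours stood out: F replicate 2 with 68.0 TPM, F replicate 5 with 14.4 TPM, F replicate 3 with 9.8 TPM and F replicate 6 with 6.24 TPM, while every other library was at or under 2.2 TPM. Left out 1 pair at a time, the log2 fold change lay between 0.45 and 1.17. Cholangiocyte markers summed to 2417, 169, 254 and 115 TPM in those 4 tumours, in the same order, where the tumour median was 72.5 TPM and peritumour tissue ranged over 39.3 to 356 TPM. Of these 5 markers 0 passed, and their part in the Cyp2s1 values was not tested. Cyp2s1 and Cyp21a1 were singled out after their values were seen.

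Of the Cyp1 genes, both targets of the aryl hydrocarbon receptor, 1 fell. Cyp1a1 (chromosome 9, 57687928 to 57703824, gene ID 13076) was scarce, at 0.08 to 1.87 TPM in tumours (median 0.48) and 0.33 to 3.02 TPM in peritumour tissue (median 0.855). Its log2 fold change was -0.98 ± 0.29 (SE), adjusted p = 0.039 (edgeR), and the call held in 6 of the 14 fits that leave out 1 pair. Cyp1b1, known mostly outside hepatocytes, measured 0.41 to 2.43 TPM in tumours (median 0.74) and 0.46 to 3.22 TPM in peritumour tissue (median 1.33), lower in 13 pairs, log2 fold change -0.71 ± 0.26 (SE), adjusted p = 0.0833 (edgeR). The pair against that direction was F pair 5, with 2.43 TPM in tumour and 0.46 TPM in peritumour tissue.

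Of the 6 genes in other families, only Cyp26b1 passed. It and Cyp26a1 break down retinoic acid. Cyp26b1 (chromosome 6, 84571414 to 84593908, gene ID 232174) measured at most 0.83 TPM in tumours (median 0.29) and at most 3.54 TPM in peritumour tissue (median 0.575), log2 fold change -1.25 ± 0.32 (SE), adjusted p = 0.022 (edgeR). Cyp26a1 ranged over 0.86 to 21.3 TPM in tumours (median 2.93) and 1.61 to 15.9 TPM in peritumour tissue (median 6.67), adjusted p = 0.15 (edgeR). Stellate cells and fibroblasts, a known site of Cyp26b1, had 3 of 8 markers lower, with sums of 88.7 to 474 TPM in tumours and 189 to 620.2 TPM in peritumour tissue, and their part in the Cyp26b1 result was not tested.

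Outside families Cyp1 to Cyp4, none of the steroid and sterol enzymes passed. Cyp39a1, which hydroxylates oxysterols, measured 16.0 to 55.6 TPM in tumours (median 30.5) and 20.7 to 48.3 TPM in peritumour tissue (median 28.9), log2 fold change 0.03 ± 0.17 (SE), adjusted p = 0.931 (edgeR). Cyp17a1, an enzyme of androgen synthesis, measured 3.47 to 29.0 TPM in tumours (median 8.55) and 4.55 to 18.3 TPM in peritumour tissue (median 12.4), adjusted p = 0.42 (edgeR). Cyp20a1, whose substrate is not established, had medians of 27.6 TPM in tumour and 24.1 TPM in peritumour tissue, adjusted p = 0.472 (edgeR). Cyp21a1, an adrenal steroid enzyme, had medians of 1.80 TPM in tumours and 2.83 TPM in peritumour tissue, but F replicates 3 and 5 had 24.3 and 31.3 TPM in their tumours and 3.33 and 3.23 TPM in peritumour tissue. Its log2 fold change was -0.07 ± 0.35 (SE), adjusted p = 0.914 (edgeR).

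**Figure D4:**
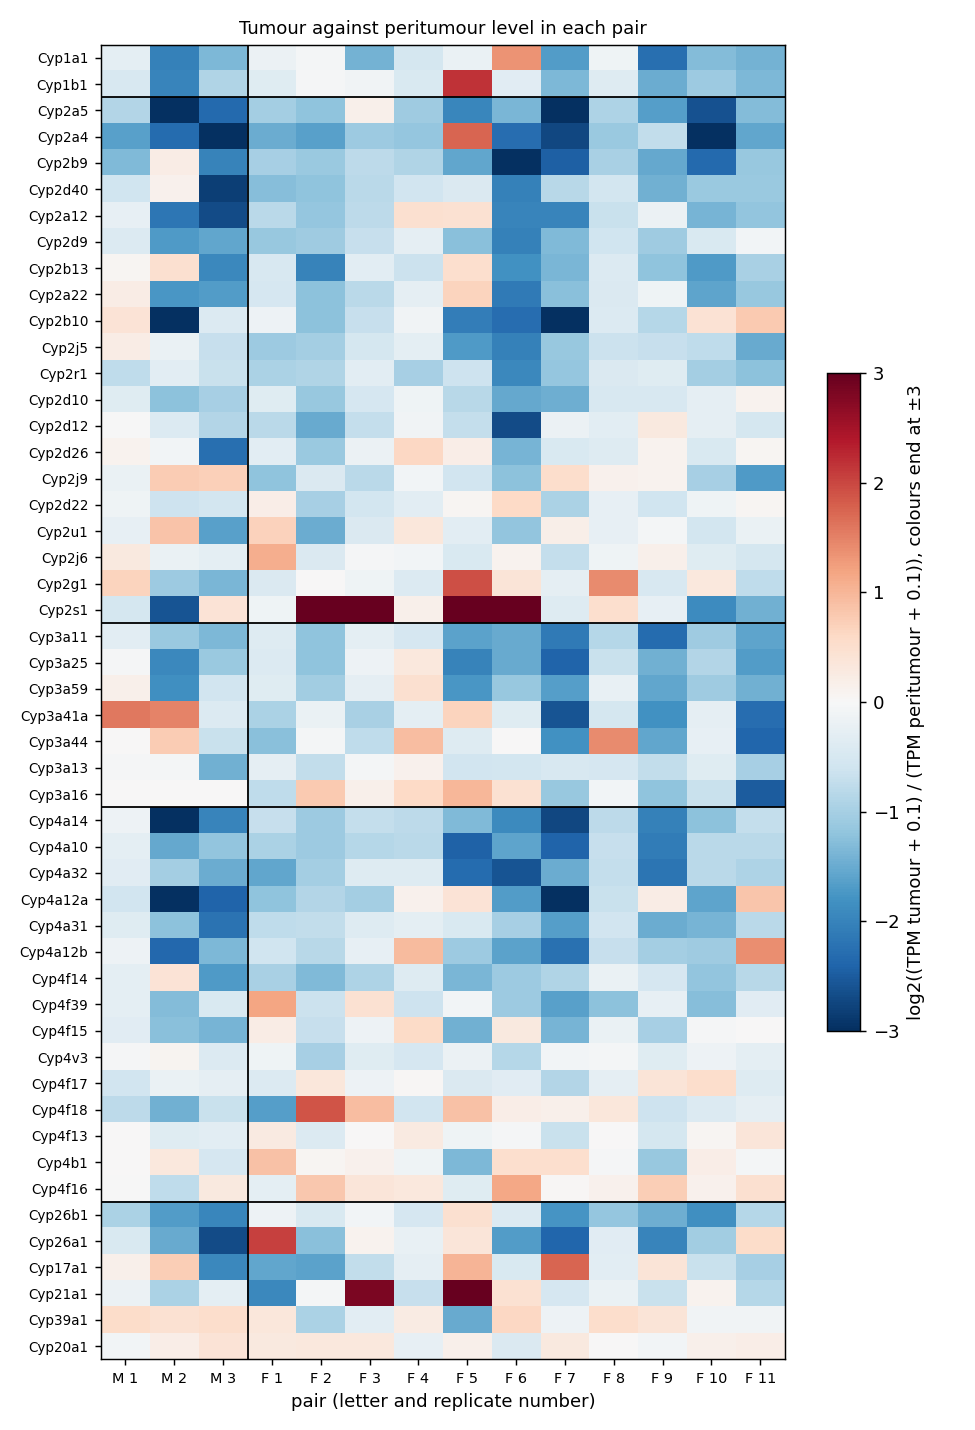
Log2 ratio of tumour over peritumour TPM, each with 0.1 TPM added, for the 50 genes (down the page, by family) in 3 M pairs and 11 F pairs; blue is lower and red higher in the tumour, and colours end at 3 in either direction. Blue fills most of the Cyp2a, Cyp3a and Cyp4a lines, and the deepest red cells of Cyp2s1 and Cyp21a1 belong to F pairs 2, 3, 5 and 6.

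Near-copies were also summed. With the counts of each of 7 subfamilies added into 1 value per library, including relatives under the 1 CPM rule, and the model refitted, all 7 sums passed as lower, where 5.83% of the values tested did so. The log2 fold changes of the sums were -1.33 ± 0.22 for Cyp2a, -1.26 ± 0.18 for Cyp4a, -1.12 ± 0.16 for Cyp3a, -1.02 ± 0.30 for Cyp2b, -0.64 ± 0.12 for Cyp2j, -0.53 ± 0.15 for Cyp2d and -0.35 ± 0.11 for Cyp4f (SE), with adjusted p between 0.00111 and 0.0456 (edgeR). This summing was added after the data were seen. A sum does not show that every relative changed.

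The P450 genes set aside were tested in that same fit. Of 13 Cyp2c genes at the same level rule, 8 passed as lower (median log2 fold change -1.11), and of the 8 others left out 5 did (median -0.88). Whether the 50 differ from these was not tested.

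Partners and regulators of P450 enzymes were counted from lists. Of 16 genes for redox partners and haem supply, 3 fell and 0 rose (median log2 fold change -0.11). The 3 were Pgrmc1, a haem-binding partner, with 332 ± 97.4 TPM in tumours and 462 ± 105 TPM in peritumour tissue (SD, n = 14 each), log2 fold change -0.53 ± 0.09 (SE), adjusted p = 0.00193 (edgeR); Cyb5a, the main cytochrome b5, at -0.40 ± 0.12 (SE), adjusted p = 0.0404 (edgeR); and Cyb5b, at -0.34 ± 0.08 (SE), adjusted p = 0.0175 (edgeR). Por, the electron donor of these enzymes, averaged 233 ± 69.4 TPM in tumours and 272 ± 71.7 TPM in peritumour tissue (SD, n = 14 each), adjusted p = 0.191 (edgeR). Of 18 regulators, 3 fell and 0 rose. Nr1i3, which encodes CAR, averaged 40.6 ± 17.9 TPM in tumours and 71.3 ± 11.4 TPM in peritumour tissue (SD, n = 14 each), log2 fold change -0.94 ± 0.18 (SE), adjusted p = 0.00509 (edgeR), lower in 12 pairs. Rora and Nr1h4 (FXR) fell by 0.45 ± 0.11 and 0.34 ± 0.10 (SE) on the log2 scale, adjusted p = 0.0177 and 0.0324 (edgeR). Nr1i2 (PXR) and Hnf4a had log2 fold changes of 0.01 ± 0.13 and 0.00 ± 0.11 (SE), and Ahr one of -0.65 ± 0.22 (SE), adjusted p = 0.0627 (edgeR).

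Cell type markers moved as well. Of 6 hepatocyte markers, Alb passed as lower (log2 fold change -0.50 ± 0.16, SE, adjusted p = 0.046, edgeR) and the median of the 6 was -0.22. Their sum ranged over 20190 to 48080 TPM in tumours and 20020 to 55460 TPM in peritumour tissue, with a median ratio within pairs of 0.878, against 0.509 for the 50 P450 genes. Markers of Kupffer cells (4 of 6 lower, sums of 86.1 to 540.3 TPM in tumours and 129 to 528 TPM in peritumour tissue) and of sinusoidal endothelium (2 of 5 lower, 39.7 to 140.4 TPM in tumours and 70.3 to 199 TPM in peritumour tissue) also fell in part, and no marker of these lists was at 0 in all libraries. Their part in the P450 results was not tested.

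Differences between M and F animals were then compared within each tissue, since many of these genes are sex-biased in mouse liver. Between Pe_M and Pe_F, 0 of the 50 passed with edgeR, against 0.0283% of all genes, and 5 had an unadjusted p under 0.05, against 1.52% of all genes. DESeq2 also called 0 of the 50, against 0.0425% of all genes, with 7 at an unadjusted p under 0.05, against 1.93% of all genes. There were 3 M animals and 11 F animals, and all M libraries have the first code style. These fits had no block for the animal.

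The 5 genes with an unadjusted p under 0.05 between Pe_M and Pe_F, none of which passed, were all on the sex-biased lists: Cyp2b9, Cyp3a41a and Cyp3a44 with lower levels in Pe_M, and Cyp4a12a and Cyp4a12b with higher ones. Not all listed genes followed their list. The female-biased Cyp4a14 was fitted as higher in Pe_M (log2 fold change 1.05 ± 0.86, SE) and Cyp17a1 as near equal (-0.02 ± 0.51, SE). Cyp2a4, Cyp2b13, Cyp3a16 and Cyp39a1 of that list were fitted as lower in Pe_M. Cyp2b9 measured 1.83, 0.59 and 0.94 TPM in Pe_M and 0.84 to 85.8 TPM in Pe_F (median 22.6), log2 fold change -3.46 ± 1.28 (SE), adjusted p = 1.0 (edgeR), and 1 Pe_F library lay within the M range. Cyp3a41a measured 0.14, 0 and 0.19 TPM in Pe_M and 0.24 to 5.62 TPM in Pe_F (median 2.82), and 98.6% of its transcript stretches occur elsewhere, mostly in Cyp3a41b. Cyp3a44 measured 0, 0 and 0.06 TPM in Pe_M and 0.12 to 5.36 TPM in Pe_F (median 0.46). For Cyp3a41a and Cyp3a44 the 3 Pe_M libraries lay under all 11 Pe_F libraries. How many of all genes separate in this way was not counted. Cyp3a16 was listed at 0 in all 6 M libraries and in 5 of 11 Tu_F libraries, and at 0.06 to 8.03 TPM in Pe_F (median 0.13). Cyp2b13, Cyp3a16, Cyp3a41a and Cyp3a44 reached 1 CPM in F libraries alone. The level rule therefore kept them through the F side, which favours higher values in F.

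On the male-biased side, Cyp4a12a measured 71.8, 97.7 and 184.5 TPM in Pe_M and 7.37 to 165 TPM in Pe_F (median 35.6), log2 fold change 2.66 ± 0.92 (SE), adjusted p = 1.0 (edgeR). Cyp4a12b measured 41.6, 74.3 and 120.1 TPM in Pe_M and 10.2 to 43.4 TPM in Pe_F (median 27.1), log2 fold change 2.37 ± 0.75 (SE), adjusted p = 1.0 (edgeR). Cyp2d9 measured 386, 275 and 437 TPM in Pe_M and 36.2 to 263 TPM in Pe_F (median 225). The Cyp2d9 groups did not overlap, while those of Cyp4a12a and Cyp4a12b did. The share of all genes without overlap was not counted. The fitted log2 fold change of Cyp2d9 was 0.85 ± 0.62 (SE), unadjusted p = 0.181 and adjusted p = 1.0 (edgeR).

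In tumours, 0 of the 50 passed between Tu_M and Tu_F with edgeR, against 0.0283% of all genes, and 4 of the 50 had an unadjusted p under 0.05, against 9.84% of all genes. DESeq2 called 1, Cyp2s1, against 0.482% of all genes, at -5.37 ± 1.23 (log2 fold change, SE), adjusted p = 0.0103; this is the gene carried by 4 F tumours. Cyp2b9 measured 0.67, 0.71 and 0.16 TPM in Tu_M and 0.22 to 43.3 TPM in Tu_F (median 6.56). Cyp4a12a measured 48.2, 6.42 and 35.0 TPM in Tu_M and 3.82 to 180 TPM in Tu_F (median 12.7), and Cyp2d9 measured 290.1, 84.8 and 149 TPM in Tu_M and 15.2 to 238 TPM in Tu_F (median 126). For these 3 genes the groups overlapped in tumours.

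The tumour effect in M minus that in F passed for 0 of the 50 and for 0.0% of all genes, with edgeR and with DESeq2. At an unadjusted p under 0.05 there were 3 of the 50 in the edgeR fit, against 7.09% of all genes, and 5 with DESeq2, against 8.51%. The 3 of the edgeR fit were Cyp2j5 and Cyp2j9, with differences of 0.81 and 1.00 on the log2 scale, and Cyp4f18, with -1.10. Each had an adjusted p = 0.688 (edgeR). Cyp4a12a was not among these 3, with an unadjusted p = 0.0578 (edgeR). For Cyp4a12a the difference between the tumour effects was -1.55 ± 0.76 (SE) on the log2 scale, adjusted p = 0.688 (edgeR). Tumour against peritumour, the male-biased list had 2 of 3 genes lower and the female-biased list 3 of 9 tested (Cyp2a4, Cyp2b9 and Cyp4a14), with median log2 fold changes of -0.99 and -0.69.

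**Figure D5:**
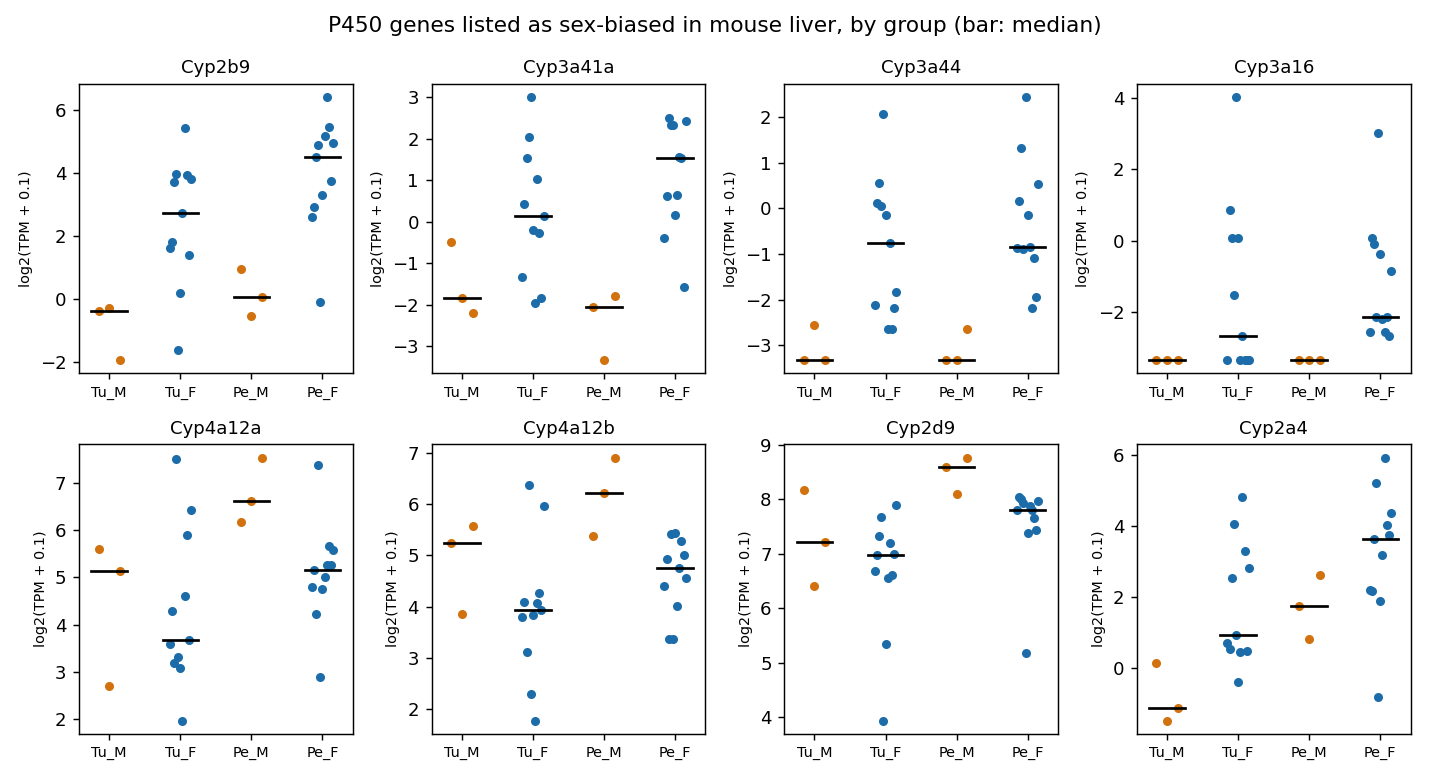
Log2(TPM + 0.1) of 8 of the genes listed as sex-biased in Tu_M, Tu_F, Pe_M and Pe_F, 1 point per library (M orange, F blue), with bars at the medians. Cyp2b13, Cyp4a14, Cyp17a1 and Cyp39a1, also listed as female-biased, are not drawn. Cyp2b9, Cyp3a41a and Cyp3a44 sit low in M, Cyp4a12a, Cyp4a12b and Cyp2d9 sit high in Pe_M, and none of the M against F differences passed with edgeR. Cyp3a16, Cyp3a41a and Cyp3a44 met the level rule through F libraries alone.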

How the data were processed

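Poly(A)-selected RNA from 14 tumour and 14 peritumour samples was sequenced. The submitters' processing notes list RSEM 1.2.12, DESeq2 1.4.5, Bowtie2 2.2.5 and HISAT2 2.0.4 without roles. The authors deposited estimated counts and TPM per gene and library, per the file headers, and 8.06% of the estimated counts are not whole. Strandedness is not given in the sources used.

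Estimated counts were rounded. Genes kept by filterByExpr (14117) were fitted with edgeR 4.0.16 (R 4.3.3) by the robust quasi-likelihood method, with TMM factors of 0.809 to 1.36, the animal as a block and Benjamini-Hochberg adjustment. Groups Tu_M, Tu_F, Pe_M and Pe_F were contrasted in 1 fit with code style as a covariate. That fit had no block for the animal, so both libraries of an animal were treated as independent. DESeq2 1.42.0, other scalings, no filter, left-out animals and subsets were alternatives. The fits were tested on simulated data. Pairing comes from shared title codes. Deviations within pairs correlated over genes at 0.135 to 0.61, against a median of -0.0171 for unpaired libraries. Of the 14 tumours, 10 correlated best with the peritumour library of their own pair, and the rest with that of another pair. The labels do not say outright that replicates are separate animals, and p-values then measure only the spread between these samples. Genes set to be named were the 3 most abundant of each family, the 12 with the smallest adjusted p and a fixed list. That list was Cyp1a1, Cyp1b1, Cyp2b10, Cyp3a11, Cyp4a14, Cyp17a1, Cyp26a1, Cyp4f18 and Cyp46a1. Of these, Cyp46a1 lay under the level rule and was not tested, and some of the genes named have a fold change without levels. Further genes were named after their values were seen. Members and lists were chosen with earlier results of these data known.

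Transcripts of GENCODE M21 were split into 50-base stretches to count those shared between genes. Promoter windows are RefSeq's on GRCm38.p6, and gene positions (GRCm38) were taken from the authors' deposited table.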

Additional observations from a re-analysis of the deposited data

How the results depend on the processing

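The count of 23 P450 genes lower in tumour rests on the paired design. It was 0 with no replicate block, 0 with M pairs alone (3 pairs; 22 of 45 and 10.2% of all genes at an unadjusted p under 0.05, none of all genes called), 0 with the first code style alone (6 pairs; 28 of 48 and 8.78%, none of all genes called) and 15 with the second, where 4.09% of all genes were called lower. It was 20 with F pairs alone (5.3% of all genes called lower), 23 with library size scaling (4.80%) and 22 with RLE scaling (5.90%). DESeq2 gave 28 (8.78%), and no filter gave 21 (3.8%). Leaving out 1 pair at a time gave 20 to 24, where 3.68% to 6.76% of all genes were called lower. Of the 23 genes 20 were called in all 14 of these fits; Cyp1a1, Cyp4a12a and Cyp4v3 were not, and 6 genes outside the 23 passed in at least 1. All 23 stayed below 0 in the fits named above. Higher calls stayed at 0 in every setting run. Between Tu_M and Tu_F the count was 0 in the edgeR settings and 1 with DESeq2; for Pe_M against Pe_F and the difference between tumour effects it was 0 in all. Over 1185 values of single genes, 1052 kept their side of the threshold, 118 no longer passed, 15 newly passed and 0 called values changed sign; 10 genes, none called, changed sign in some setting. Library size scaling moved the median of all genes to -0.13 for Pe_M against Pe_F and -0.11 for Tu_M against Tu_F. Causes were not tested. Depth limits genes under 1 TPM.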
